A study of Mus musculus with 26 samples.

Results

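Lungs of 28-day-old mice lacking both Fgfr3 and Fgfr4 (compound knock-out, here DKO) were compared with lungs of 28-day-old mice heterozygous for both targeted genes (compound heterozygous, here DHet). The comparison takes the 3 DKO and the 3 DHet arrays of the 28-day set, 6 of the 26 arrays of the study, and all 45037 probe sets that are not array controls. RNA from 3 lungs was pooled for each array, which makes the spread between arrays a spread between pools. Both groups carry targeted alleles of Fgfr3 and Fgfr4, whereas their strain is not stated in the material used here. The 2 wild type arrays (WT) of that age, from C57BL6 mice, are given beside the main groups as a description. In limma's test against WT, 6 probe sets were called in DHet (0.0222%) and 511 in DKO (1.89%). The other arrays form 2 further age sets, with 3 arrays per genotype in each, whose sample titles and age labels disagree on which is 8 days and which is 1 day old. Each is named here by its titles, as the set titled 8 day or titled 1 day. Levels are log2 probe set values as deposited, so a difference of 1 is a 2-fold change. A probe set was called, and is then said to have risen or fallen, when its adjusted p in limma's moderated test was under 0.05. That test, and each SE from it, used 1 spread per probe set taken over all 26 arrays, the other ages included. The titles call the arrays of a group biological replicates.

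Fgfr3 and Fgfr4 encode receptor tyrosine kinases for fibroblast growth factors. Mice without both receptors are known for lungs that look normal at birth and then fail to divide their air spaces by secondary septa, with elastin laid down in excess. Septation depends on myofibroblasts that make elastic fibres, on capillary growth and on epithelial cells that line the new walls, so genes of these cells were described together with signalling and immune genes.

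The 6 arrays were alike in their overall measures. Array medians lay between 5.84 and 5.89 log2 over the 28-day set, and the lowest correlation was 0.991 within DHet and within DKO and 0.982 between them. Lung markers were high on every array, with the surfactant gene Sftpc between 13.88 and 13.97 log2 and the club cell gene Scgb1a1 between 13.79 and 13.87 log2 in DHet and DKO. The 3' to 5' difference of the actin control, a sign of RNA quality, was 0.36, 0.33 and 0.26 log2 in DHet and 0.23, 0.27 and 0.27 log2 in DKO. Sex-linked genes differed between arrays. The Y-linked gene Eif2s3y was at 3.36, 3.53 and 6.47 log2 in DHet and at 7.23, 7.52 and 6.45 log2 in DKO, and was not called (adjusted p = 0.0838). Xist, which is made from the inactive X chromosome, was at 10.46, 10.93 and 10.18 log2 in DHet and at 9.33, 9.31 and 10.17 log2 in DKO. Replicate 3 of each genotype was alike in both genes, while the DHet replicates 1 and 2 had little Y-linked signal. The Eif2s3y level differs between the groups, so with these arrays its part and that of genotype cannot be told apart. Counts from a fit with that level as a covariate, chosen after the values were seen, stand beside the larger groups of genes.

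Of the 45037 probe sets, 27022 passed the filter on low levels, and these represent 13079 genes. DKO differed from DHet in 819 probe sets (3.03% of those tested), of which 390 were higher (1.44%) and 429 lower (1.59%). Counted by the probe set with the highest mean level, 478 genes were called (3.65%), 256 higher (1.96%) and 222 lower (1.7%). The median size of a called difference was 1.50-fold, and 62 probe sets rose and 48 fell by at least 2-fold. The 3 DKO arrays lay wholly above or below the 3 DHet arrays in 475 of the 478 genes, against 3045 of all 13079 (23.3%). The calls rest on the same arrays, so this lack of overlap is no separate support for them. The WT mean lay on the DHet side of the midpoint between the groups for 84% of the called probe sets. It was beyond DHet in 209 of them, between the groups and nearer DHet in 479, nearer DKO in 128 and beyond DKO in 3. The number called depended on single arrays, and was 398 when DKO replicate 1 was left out, 450 for DKO replicate 3, 444 for DHet replicate 1 and 519 for DHet replicate 3. It was 312 with the Eif2s3y covariate, while all 819 kept their sign in every alternative that tested them.

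Counted by the probe set with the highest mean level of each gene, the largest rise among called genes was in Chil4. It encodes a chitinase-like protein of the type 2 immune response. Chil4 was at 5.19, 5.29 and 5.33 log2 in DHet and at 7.61, 7.21 and 9.001 log2 in DKO, a 6.36-fold rise (log2 2.67 ± 0.253 SE, adjusted p = 9.44e-07). The DKO arrays did not overlap the DHet arrays but spread more widely, and replicate 3 was highest. Ankrd37, an ankyrin repeat gene known as a hypoxia target, was at 5.88, 5.87 and 5.52 log2 in DHet and at 8.77, 7.48 and 7.89 log2 in DKO (4.89-fold). The pericyte gene Rgs5, a regulator of G protein signalling, rose 4.52-fold from 7.17, 7.07 and 7.24 log2 to 9.87, 9.07 and 9.06 log2. Its 3 other probe sets rose as well. Saa3, an acute phase serum amyloid, rose 4.50-fold with DKO arrays between 8.65 and 8.74 log2 and DHet arrays between 6.45 and 6.58 log2. Cdk19, a kinase of the Mediator complex, was at 8.85, 8.75 and 9.0 log2 in DHet and at 11.03, 10.94 and 10.97 log2 in DKO (log2 2.11 ± 0.135 SE, adjusted p = 6.51e-09). Within each genotype these 3 values differed by far less than the genotypes did, and a second Cdk19 probe set rose by 1.81 log2. Ntrk2, the receptor for brain-derived neurotrophic factor, rose 3.87-fold, and in its other 3 probe sets the difference was 3.37, 1.04 and 0.38 log2, the last not called (adjusted p = 0.0622).

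**Figure D1:**
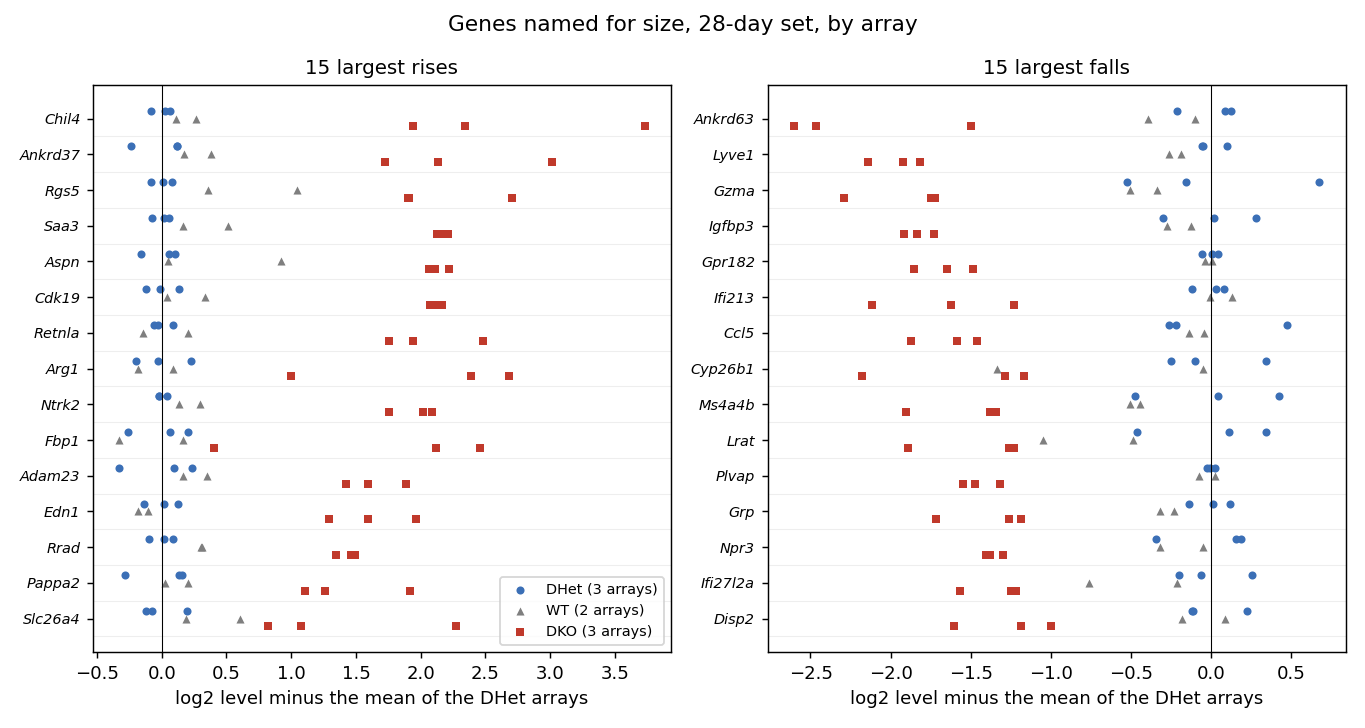
Level of the 15 genes with the largest rises (left) and the 15 with the largest falls (right) on each array of the 28-day set, as the log2 level minus the mean of the 3 DHet arrays (blue circles). The DKO arrays (red squares) lie apart from the DHet arrays in each of these genes, as the selection required, and 1 DKO array is close to DHet in Fbp1; grey triangles are the 2 WT arrays.

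Among the falls, Ankrd63, an ankyrin repeat gene, was at 8.00, 7.97 and 7.67 log2 in DHet and at 5.28, 6.38 and 5.41 log2 in DKO (4.56-fold, log2 -2.19 ± 0.191 SE, adjusted p = 3.76e-07). Lyve1, the hyaluronan receptor of lymphatic vessels and some macrophages and capillaries, was at 11.55, 11.40 and 11.40 log2 in DHet and at 9.52, 9.64 and 9.31 log2 in DKO (3.89-fold). Gpr182, an endothelial chemokine-scavenging receptor, was at 8.50, 8.39 and 8.46 log2 in DHet and at 6.60, 6.81 and 6.97 log2 in DKO (log2 -1.66 ± 0.117 SE, adjusted p = 2.17e-08). The WT arrays of these genes lay with DHet, at 7.78 and 7.49 log2 for Ankrd63, 11.26 and 11.19 log2 for Lyve1 and 8.46 and 8.42 log2 for Gpr182. The other large falls were in Grp, which encodes gastrin-releasing peptide (2.61-fold), in Npr3, the clearance receptor for natriuretic peptides (2.56-fold), and in Disp2 (2.40-fold), whose other probe set differed by 0.17 log2 and was not called. Other large rises were in Adam23 (3.10-fold), Rrad, a small GTPase of muscle (2.70-fold), Pappa2, a protease that cleaves IGF binding proteins (2.69-fold), and the anion exchanger Slc26a4 (2.62-fold). Fbp1, an enzyme of gluconeogenesis, was at 7.34, 5.63 and 7.68 log2 in DKO against 4.96, 5.43 and 5.28 log2 in DHet, so DKO replicate 2 was close to the DHet arrays. Of the 30 genes named for size, 29 were called without each array in turn. Edn1 was not called without DKO replicate 1, DKO replicate 3, DHet replicate 1 or DHet replicate 3 (adjusted p up to 0.0988). With the Eif2s3y covariate 3 of the 30 were not called, namely Edn1 (log2 1.57, adjusted p = 0.118), Igfbp3 (log2 -1.91, adjusted p = 0.056) and Retnla (log2 1.81, adjusted p = 0.0667), whose differences without the covariate were 1.62, -1.82 and 2.06 log2.

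Fgfr3, in the probe set of higher level, was at 9.58, 9.59 and 9.68 log2 in DHet and at 9.03, 9.07 and 9.01 log2 in DKO (log2 -0.58 ± 0.131 SE, adjusted p = 0.0137), with WT at 9.94 and 10.27 log2. There the genotypes did not overlap, and DHet lay between WT and DKO. In its other probe set Fgfr3 was at 7.22, 7.41 and 7.37 log2 in DHet and at 6.55, 6.36 and 6.81 log2 in DKO, and there WT, at 7.49 and 7.32 log2, overlapped DHet. Signal remained well within the measured range in DKO lung in both probe sets. The first was not called without DKO replicate 1, DKO replicate 3 or DHet replicate 3 (adjusted p up to 0.064). Fgfr4 did not differ past the test in any of its 3 measured probe sets, at log2 -0.05, -0.11 and 0.14, and 2 more lay under the level filter. In the probe set of highest level it was at 8.28, 8.25 and 8.27 log2 in DHet and at 8.24, 8.17 and 8.23 log2 in DKO. The exons deleted and those the probes cover are not stated in the material used here, so these values check neither deletion. The difference in Fgfr4 in the other age sets was -0.70 and -0.49 log2 in the probe set of highest level.

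**Figure D2:**
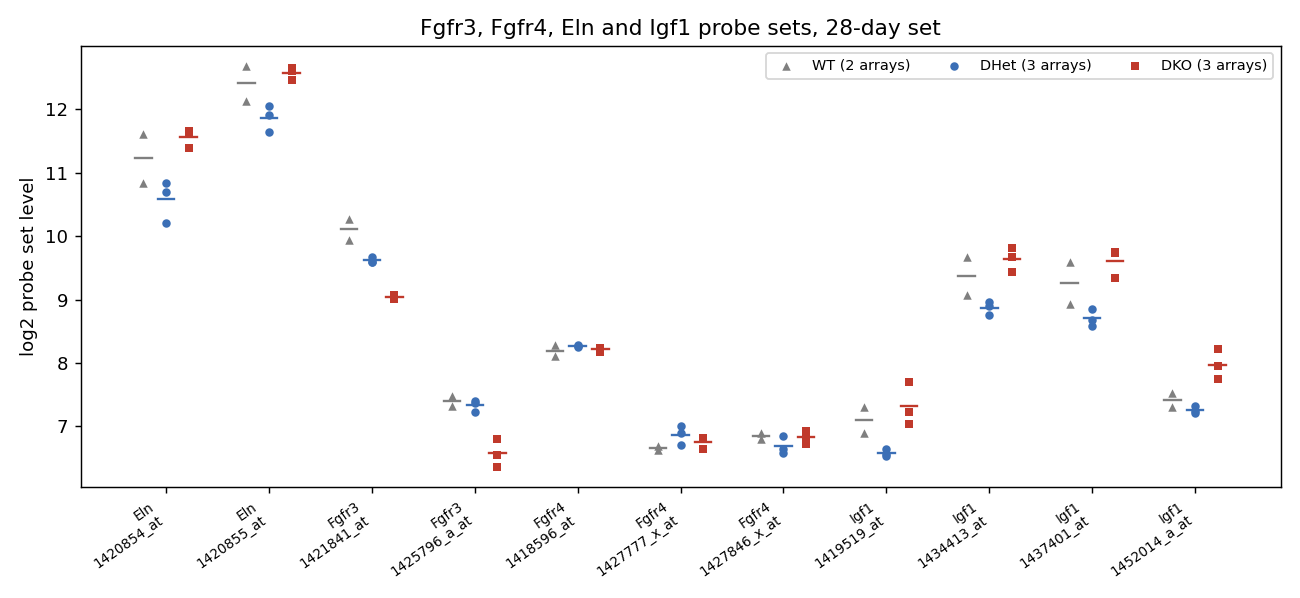
Log2 level on each array of the 28-day set for the measured probe sets of Fgfr3, Fgfr4, Eln and Igf1, with WT as grey triangles, DHet as blue circles, DKO as red squares and the group mean as a bar. Fgfr3 is lowest in DKO in both probe sets, Fgfr4 lies at like levels in the 3 genotypes, and the DKO arrays lie above the DHet arrays in each Eln and Igf1 probe set, where the WT arrays lie between the groups or at the DKO level, and in 1 Igf1 probe set also among the DHet arrays.

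Of 11 measured FGF receptors and ligands 1 was called, Fgfr3 itself, against 3.65% of all genes, and the median difference was -0.01 log2. Fgfr2, the main epithelial receptor for FGF7 and FGF10, was between 10.06 and 10.10 log2 in DHet and between 9.93 and 10.17 log2 in DKO. Fgfr1 differed by log2 -0.15 (adjusted p = 0.568) and the ligand gene Fgf18 by 0.34 (adjusted p = 0.564). Among 16 feedback and target genes of FGF signalling, Dusp6, a phosphatase that switches off ERK, rose and Il17rd, a membrane antagonist of FGF receptors also called Sef, fell. Dusp6 was at 9.96, 9.94 and 10.05 log2 in DHet and at 10.77, 10.35 and 10.59 log2 in DKO (log2 0.59, adjusted p = 0.0136). Il17rd was at 8.56, 8.51 and 8.42 log2 in DHet and at 7.77, 8.23 and 8.02 log2 in DKO (log2 -0.49, adjusted p = 0.0271). The DKO arrays of both genes lay apart from DHet, in opposite directions. The transcription factor genes Etv4 and Etv5 and the inhibitor genes Spry2 and Spry4 differed by 0.05, -0.00, -0.23 and 0.27 log2, none of them called. Dusp6 was not called without DKO replicate 1 or 3 or DHet replicate 1 or 2 (adjusted p up to 0.114), and Il17rd not without any 1 array other than DKO replicate 2 (adjusted p up to 0.21).

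Elastic fibre genes rose in part. Of 20 measured, 3 were called higher (1.96% of all genes) and 0 lower (1.7% of all genes), with a median of 0.16 log2 against 0.01 over all genes. The 3 were Eln, which encodes elastin, Mfap5, a microfibril glycoprotein, and Fbln2, a fibulin of elastic fibres and basement membranes. Eln was at 11.64, 12.05 and 11.90 log2 in DHet and at 12.65, 12.46 and 12.60 log2 in DKO, with WT at 12.13 and 12.68 log2. The DKO arrays were above all DHet arrays, but 1 WT array was higher than every DKO array. The second Eln probe set differed by 0.97 log2 (adjusted p = 0.00292), with DHet at 10.20, 10.83 and 10.70 log2 and DKO at 11.62, 11.38 and 11.66 log2. Mfap5 rose by 0.71 log2 and by 0.88 log2 in its second probe set, and Fbln2 rose by 0.66 log2. Some assembly genes lay higher without being called, with the crosslinking enzyme gene Lox at 0.31 log2 (adjusted p = 0.478), Fbln5 at 0.26 (adjusted p = 0.236), Mfap4 at 0.33 (adjusted p = 0.141) and Adamtsl2 at 0.60 (adjusted p = 0.116). Of the 20 genes 12 were above 0 and 8 below, down to -0.19 log2, against 7013 and 6066 of all 13079 genes. In 9 of the 20 genes the DKO arrays lay above all DHet arrays and in 2 below (23.3% of all genes did not overlap). Both Eln probe sets were called without each array in turn, but the count of 3 fell to 1 without DKO replicate 1, DKO replicate 3 or any 1 DHet array, and to 0 with the Eif2s3y covariate. Mfap5 was lost without any 1 of the 6 arrays and Fbln2 without any but DKO replicate 2 (adjusted p up to 0.167 and 0.206).

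The IGF system, which links growth hormone to tissue growth, moved in both directions. Igf1, which encodes insulin-like growth factor 1, rose in all 4 of its probe sets, by 0.71 to 0.90 log2. In the probe set of highest level it was at 8.76, 8.91 and 8.96 log2 in DHet and at 9.68, 9.44 and 9.81 log2 in DKO, with WT at 9.07 and 9.67 log2 in between and overlapping DKO. Igfbp3, the main carrier of IGF in serum, was at 8.41, 8.99 and 8.73 log2 in DHet and at 6.87, 6.98 and 6.79 log2 in DKO (3.54-fold lower, log2 -1.82 ± 0.383 SE, adjusted p = 0.00767). WT lung was at 8.58 and 8.44 log2, with DHet, and a second Igfbp3 probe set fell by 2.26 log2. Igfbp2, a binding protein also made by alveolar type 1 cells, fell by 0.72 log2 (adjusted p = 0.026). Igfbp5 lay 0.76 log2 higher with no overlap and was not called (adjusted p = 0.0744), while its second probe set rose by 0.40 log2. The receptor genes Igf1r and Insr differed by 0.03 and -0.10 log2. Of 18 measured members 1 rose and 2 fell, against 1.96% and 1.7% of all genes, with a median of -0.03 log2, and with the Eif2s3y covariate 0 were called. The call of Igf1 in the probe set of highest level was lost without DKO replicate 1 or 3 or DHet replicate 1 (adjusted p up to 0.0794), and that of Igfbp2 without any 1 array but DHet replicate 2 (adjusted p up to 0.131). Another Igf1 probe set was called without each array in turn (adjusted p up to 0.0107).

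Of 24 measured collagen genes 7 rose in DKO lung and 0 fell, with a median of 0.22 log2 (1.96% of all genes rose and 1.7% fell). Col15a1, a basement membrane collagen, was at 6.35, 6.34 and 6.09 log2 in DHet and at 7.22, 7.42 and 7.24 log2 in DKO (log2 1.04 ± 0.0989 SE, adjusted p = 9.53e-07). WT arrays were at 6.34 and 6.41 log2, with DHet. Col8a1, a short-chain collagen of vessel walls, rose by 0.74 log2, and Col6a1, of microfibrillar collagen VI, by 0.28 log2. Col1a1, of fibrillar collagen I, rose by 0.59 log2 (adjusted p = 0.0112), while its other probe set differed by log2 -0.16 (adjusted p = 0.96). Among 25 other matrix genes 5 rose and 1 fell. Aspn, a small proteoglycan of septal myofibroblasts, was at 7.78, 7.52 and 7.73 log2 in DHet and at 9.89, 9.79 and 9.74 log2 in DKO (4.38-fold, log2 2.13 ± 0.24 SE, adjusted p = 1.01e-05). Fibronectin, from Fn1, rose by 0.71 log2, the proteoglycan gene Lum by 0.53 and the matricellular gene Thbs2 by 0.79. Prelp, another small proteoglycan, was the 1 that fell, by 0.59 log2 (adjusted p = 0.0487). Of 21 proteases and inhibitors 4 rose. Ctsk, the collagen-degrading cathepsin K also made by macrophages, rose by 1.36 log2 and the inhibitor gene Timp1 by 0.86 log2. Leaving out 1 array, the collagen count was 2 without DKO replicate 1, 4 without replicate 3 of DKO, 3 without DHet replicate 1, 3 without DHet replicate 3, 1 with the Eif2s3y covariate and 4 in a fit on the 6 arrays alone. The 5 rises among other matrix genes became 3 without DKO replicate 1 or 3 or DHet replicate 1 or 2, Prelp was lost without any 1 array, and the 4 among proteases and inhibitors became 2 without DKO replicate 1, DHet replicate 1 or DHet replicate 2. With the covariate both of these counts were 2. Col1a1 was not called without DKO replicate 1 or DHet replicate 1, and Col6a1 and Lum not without most single arrays (adjusted p up to 0.0927, 0.0885 and 0.0806).

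Of 19 measured markers of smooth muscle and myofibroblasts 5 rose (1.96% of all genes), with 0 lower and a median of 0.36 log2. In 11 of the 19 the DKO arrays lay above all DHet arrays (12.7% of all genes) and in 0 below (10.6% of all genes). In whole lung, more cells of a type and more RNA per cell cannot be told apart, here and for the cell types that follow. Hhip, an antagonist that binds hedgehog ligands, was at 8.83, 8.77 and 8.96 log2 in DHet and at 9.54, 9.93 and 9.92 log2 in DKO (log2 0.94, adjusted p = 0.00327), and its 3 other probe sets rose as well. Lgr6, a receptor for R-spondins, rose by 0.63 log2 and the myosin light chain gene Myl9 by 0.64 log2. The defining contractile genes were not called, Acta2 at 0.43 log2 (adjusted p = 0.135) and Tagln at 0.36 log2 (adjusted p = 0.406). Mean levels over the list were 8.32, 8.46 and 8.34 log2 in DHet and 8.72, 8.80 and 8.74 log2 in DKO. The count stayed at 5 without each array in turn and was 4 with the Eif2s3y covariate. Pericyte markers held 3 higher of 12, namely Rgs5, Abcc9 (log2 0.54) and Kcnj8 (log2 0.39), the latter 2 encoding a potassium channel. The defining pericyte gene Pdgfrb differed by log2 -0.04. Kcnj8 was lost without any 1 array (adjusted p up to 0.224). Lipofibroblast and matrix fibroblast markers held 1 lower of 18, the amino acid transporter gene Slc7a10 (log2 -0.58), and a median of -0.11 log2. Slc7a10 was lost without DKO replicate 2 or 3 or DHet replicate 2 or 3 (adjusted p up to 0.0751).

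Among signalling pathways of mesenchyme, 4 of 22 Wnt pathway genes rose, against 1.96% of all genes. These were the Wnt antagonists Sfrp1 (log2 0.82) and Sfrp2 (log2 1.01), Lgr6 and the ligand gene Wnt5a (log2 1.10). Sfrp2 was at 6.50, 6.75 and 6.98 log2 in DHet and at 7.96, 7.47 and 7.82 log2 in DKO. Wnt5a was called in 1 of its 3 probe sets and not without any 1 array (adjusted p up to 0.146), and Sfrp1 in 3 of its 5 probe sets. With the Eif2s3y covariate 2 genes of the list rose. Of 10 hedgehog pathway genes Hhip alone was called. In the BMP list of 16, the activin and BMP antagonist gene Fst rose by 1.20 log2 and the endothelial receptor gene Acvrl1 fell by 0.49 log2. Fst was at 6.38, 6.83 and 6.68 log2 in DHet and at 7.90, 7.93 and 7.64 log2 in DKO, and its call was lost without any 1 array but DHet replicate 2 (adjusted p up to 0.141). Acvrl1 was lost without DHet replicate 3 (adjusted p = 0.0574), and its second probe set differed by -0.18 log2 and was not called (adjusted p = 0.666). In the TGF-beta list 0 of 17 were called, the nearest being Pmepa1 at 0.62 log2 (adjusted p = 0.0669) and Tgfb3 at 0.47 log2 (adjusted p = 0.0823). Of 13 genes of retinoid metabolism and signalling 2 fell, against 1.7% of all genes. Lrat, which stores retinol as esters, was at 9.46, 8.89 and 9.69 log2 in DHet and at 8.12, 7.46 and 8.09 log2 in DKO (2.75-fold lower). Cyp26b1, which breaks down retinoic acid, was at 8.42, 8.56 and 9.01 log2 in DHet and at 6.49, 7.49 and 7.38 log2 in DKO (2.91-fold lower). In Cyp26b1 1 WT array was within the DHet range, at 8.61 log2, and 1 within the DKO range, at 7.33 log2. The WT arrays lay between the groups in Lrat, at 8.87 and 8.30 log2.

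Of 24 markers of capillary and general endothelium 10 fell and 2 rose, against 1.7% and 1.96% of all genes, with a median of -0.35 log2. In 18 the DKO arrays lay wholly below the DHet arrays (10.6% of all genes). Plvap, the protein of endothelial diaphragms, was at 11.64, 11.62 and 11.67 log2 in DHet and at 10.10, 10.32 and 10.17 log2 in DKO (2.72-fold lower, log2 -1.44 ± 0.134 SE, adjusted p = 7.05e-07). WT was at 11.67 and 11.57 log2, with DHet. Ednrb, the endothelin B receptor that marks aerocyte capillaries, fell by 0.67 log2 in a comparison of 10.24, 10.36 and 10.41 log2 with 9.59, 9.85 and 9.57 log2. Aplnr, the apelin receptor of general capillaries, was at 10.89, 10.70 and 10.70 log2 in DHet and at 9.06, 9.73 and 9.85 log2 in DKO (log2 -1.22, adjusted p = 0.00243). The defining pan-endothelial genes lay lower without being called, Pecam1 at -0.25 log2 (adjusted p = 0.287), Cdh5 at -0.17 (adjusted p = 0.369) and Kdr at -0.40 (adjusted p = 0.471). Going the other way, Sox17, a transcription factor of arterial endothelium, was at 10.15, 9.79 and 10.19 log2 in DHet and at 11.26, 10.81 and 10.86 log2 in DKO (log2 0.93, adjusted p = 0.000168), and the sialomucin gene Emcn rose by 0.49 log2. These 2 rises were 1 without any 1 array other than DHet replicate 3. Of the falls, 6 passed when DKO replicate 1 or DHet replicate 3 was left out, 5 when DKO replicate 3 or DHet replicate 2 was, and 5 with the Eif2s3y covariate.

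Of 15 Notch pathway genes 4 fell and 1 rose, against 1.7% and 1.96% of all genes, and the other 10 were not called. The same 2 shares stand beside the other counts of this paragraph. Dll4, the endothelial Notch ligand, was at 8.60, 8.52 and 8.72 log2 in DHet and at 7.67, 7.85 and 7.55 log2 in DKO (log2 -0.93 ± 0.114 SE, adjusted p = 2.81e-05). Its target gene Hey1 fell by 0.65 log2 and the ligand gene Dll1 by 0.56 log2, while the ligand gene Jag2 rose by 0.45 log2. The 4 lower calls were 2 without DKO replicate 1 or DHet replicate 3 and 2 with the Eif2s3y covariate, and Jag2 was lost without DKO replicate 1 or 3 or DHet replicate 1 or 2 (adjusted p up to 0.222). In the PDGF and VEGF list 3 of 18 fell, the VEGF receptor genes Flt1 (log2 -0.42) and Flt4 (log2 -0.39) and the angiopoietin receptor gene Tek (log2 -0.64). Flt1 and Tek were each lost without 5 of the 6 single arrays (adjusted p up to 0.131 and 0.209), while Flt4 was called without each, and the count of 3 became 1 without DKO replicate 1, DKO replicate 3, DHet replicate 2 or DHet replicate 3 and 0 with the Eif2s3y covariate. Among arterial and venous markers 4 of 11 fell and 1 rose, the connexin gene Gja4, whose call was lost without any 1 array other than DHet replicate 3. The noradrenaline transporter gene Slc6a2 was 0.76 log2 lower and the arterial ephrin gene Efnb2 0.64 log2 lower, Efnb2 in all 4 probe sets. Of 9 lymphatic markers Lyve1, Flt4 and Thy1 fell, while Mmrn1 and Reln lay 0.29 log2 higher each and were not called. Thy1 was lost without DKO replicate 1 or 3 or DHet replicate 1 or 3 (adjusted p up to 0.215), and the 3 falls were 1 with the Eif2s3y covariate. Kit, the stem cell factor receptor of mast cells and some capillary cells, fell by 0.83 log2 (adjusted p = 0.00382), and it was the 1 of 6 mast cell markers called. Edn1, which encodes endothelin-1, the ligand of Ednrb, was at 8.49, 8.60 and 8.34 log2 in DHet and at 10.44, 9.77 and 10.07 log2 in DKO.

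**Figure D3:**
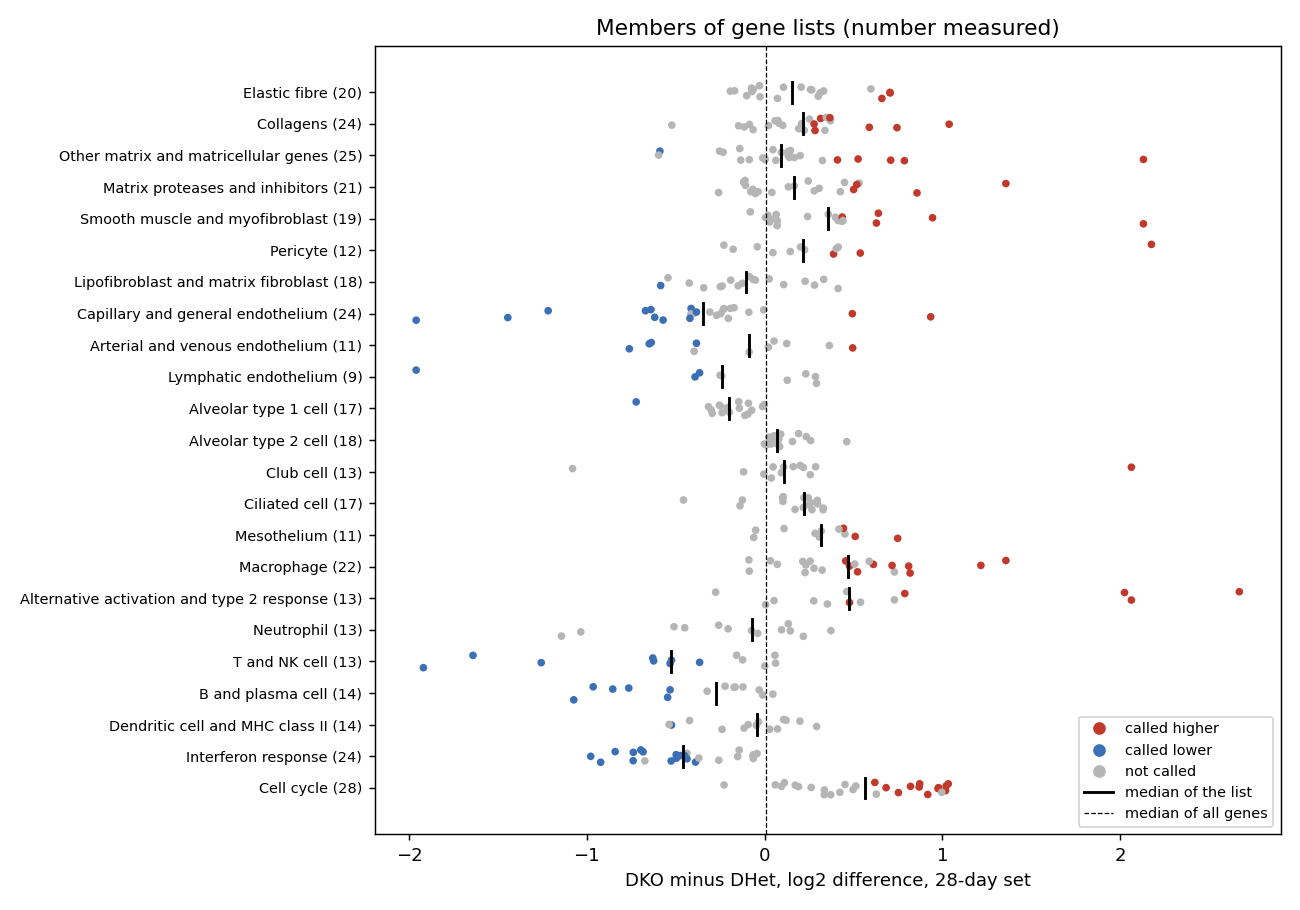
Log2 difference between DKO and DHet for each measured member of 23 gene lists, with the number measured in parentheses, called members in red (higher) or blue (lower), others in grey, the median of the list as a black bar and the median of all genes as a dashed line. Endothelial, lymphocyte and interferon lists lean below the line, with medians of -0.35, -0.52 and -0.46 for capillary endothelium, T and NK cells and interferon response, and macrophage and cell cycle lists lean above it, with medians of 0.47 and 0.57.

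Macrophage markers rose in 9 of 22 measured members (1.96% of all genes), with 0 lower and a median of 0.47 log2. Marco, a scavenger receptor of alveolar macrophages, was at 7.48, 7.21 and 7.10 log2 in DHet and at 8.78, 7.88 and 8.77 log2 in DKO (log2 1.22, adjusted p = 0.0274), with WT at 6.70 and 6.88 log2. The lysosomal gene Cd68 rose by 0.82 log2, Gpnmb by 0.81, and the complement genes C1qa and C1qc by 0.61 and 0.72. The pan-macrophage genes Csf1r and Adgre1 differed by 0.07 and 0.32 log2 and were not called. The count lay between 6 and 10 without each array in turn and was 6 with the Eif2s3y covariate. Genes of alternative activation rose in 5 of 13. Retnla, also called Fizz1 and made by both macrophages and airway cells, was at 10.57, 10.43 and 10.46 log2 in DHet and at 12.25, 12.43 and 12.97 log2 in DKO (4.18-fold, log2 2.06 ± 0.381 SE, adjusted p = 0.00271). Arg1, the arginase of alternatively activated macrophages, was at 4.51, 4.69 and 4.94 log2 in DHet and at 7.10, 5.71 and 7.40 log2 in DKO (4.07-fold). As in Chil4, Fbp1 and Marco, DKO replicate 2 was the lowest DKO array in Arg1. Mrc1, the mannose receptor CD206, rose by 0.48 log2, and its call was lost without DKO replicate 1 or 3 or DHet replicate 1 or 2 (adjusted p up to 0.148). The count of 5 was 3 without DKO replicate 3, without DHet replicate 1 or with the Eif2s3y covariate. Of 13 acute phase and inflammatory genes Saa3, Timp1 and the siderophore-binding gene Lcn2 (log2 1.11) rose, and Lcn2 was lost without DKO replicate 1 (adjusted p = 0.0601). Among 13 neutrophil genes 0 were called, with 4 lower than DHet on every DKO array (10.6% of all genes). The calprotectin gene S100a8 was at 9.49, 9.42 and 10.82 log2 in DHet and at 8.92, 9.21 and 8.49 log2 in DKO (adjusted p = 0.0971), and DHet replicate 3 stood above the rest.

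Of 13 measured T and NK cell markers 8 fell and 0 rose, against 1.7% and 1.96% of all genes, with a median of -0.52 log2. Gzma, a granzyme of cytotoxic cells, was at 9.75, 8.55 and 8.92 log2 in DHet and at 6.78, 7.35 and 7.32 log2 in DKO (3.78-fold lower, log2 -1.92 ± 0.26 SE, adjusted p = 9.39e-05). Ccl5, a chemokine of effector lymphocytes, was at 9.74, 8.999 and 9.04 log2 in DHet and at 7.39, 7.67 and 7.80 log2 in DKO (3.12-fold lower). Nkg7, a granule protein, was at 7.84, 7.05 and 7.16 log2 in DHet and at 5.86, 6.26 and 6.16 log2 in DKO. DHet replicate 1 was the highest array in each of these genes, and the other DHet arrays also lay above every DKO array. The T cell receptor complex gene Cd3d fell by 0.62 log2, whereas Cd3e, Cd4 and Cd8a, which define T cells and their main classes, differed by 0.00, 0.06 and -0.12 log2. Ms4a4b, a T cell membrane gene outside the list, was 2.91-fold lower. Among 14 B and plasma cell markers 6 fell and 0 rose, with a median of -0.27 log2. The antigen receptor chains Cd79a and Cd79b fell by 0.85 and 0.76 log2, the IgM receptor gene Fcmr by 0.96 and the adaptor gene Bank1 by 0.55. Cd79a was at 7.82, 7.20 and 7.64 log2 in DHet, 6.71, 6.77 and 6.62 log2 in DKO and 7.61 and 7.29 log2 in WT. The T and NK count was 5 without DKO replicate 1 or DHet replicate 1 and the B cell count 3 without DHet replicate 1, and they were 3 and 4 with the Eif2s3y covariate and 3 each in a fit on the 6 arrays of this comparison alone. Of 14 dendritic cell and MHC class II genes 1 fell, the chemokine receptor gene Ccr7 (log2 -0.52), which also counts among the T cell genes and was lost without DKO replicate 1 or 2 or DHet replicate 2 or 3 (adjusted p up to 0.202).

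Of 24 measured interferon response genes 14 fell and 0 rose, against 1.7% and 1.96% of all genes. The median was -0.46 log2, and all 24 differences were below 0, as were those of 6066 of all 13079 genes. Bst2, also called tetherin, was at 9.29, 9.05 and 9.24 log2 in DHet, 8.37, 8.10 and 8.17 log2 in DKO and 9.08 and 8.997 log2 in WT (log2 -0.98 ± 0.121 SE, adjusted p = 3.11e-05). The guanylate-binding protein gene Gbp6 was at 8.59, 8.63 and 8.70 log2 in DHet and at 7.77, 7.67 and 7.72 log2 in DKO, and its second probe set fell by 1.13 log2. In both genes every DKO array lay below every DHet and WT array. The immunoproteasome gene Psmb9 fell by 0.50 log2 and the translation inhibitor gene Ifit1 by 0.74 log2. Outside the list, Ifi213 and Ifi209, of the interferon-inducible p200 family, fell by 1.66 and 1.10 log2, and Ifi27l2a by 1.34 log2. Ifi213 was at 8.04, 7.88 and 8.08 log2 in DHet and at 5.88, 6.77 and 6.38 log2 in DKO. Mean levels over the list were 8.26, 8.11 and 8.17 log2 in DHet, 7.72, 7.78 and 7.65 log2 in DKO and 8.09 and 8.14 log2 in WT. The 14 calls became 3 without DKO replicate 1, 4 without DKO replicate 3, 3 without DHet replicate 1, 6 without DHet replicate 3 and 4 with the Eif2s3y covariate. Psmb9 and Ifit1 were lost without DKO replicate 1 or DHet replicate 1 (adjusted p up to 0.0773 and 0.0832).

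Genes of this response are known to carry an interferon-stimulated response element (ISRE) near their start. The element was searched on both strands, as GAAA followed after 2 bases of any kind by GAAA, or TTTC followed after 2 such bases by TTTC. The search used RefSeq promoter windows of GRCm38.p6, 300 bases each, which begin before a gene's start and end just after it. It was present in 1131 of 32851 windows (3.44%), in 11 of 21 windows of the 18 measured list members with an entry (52.4%) and in 5 of 11 windows of called members (45.5%). Matches describe these letters only, and a window without a match says nothing about the factor. The windows of Bst2 (chr8:71537423-71537722, minus strand), Ifit1 (chr19:34640639-34640938, plus strand) and Ifi213 (chr1:173599223-173599522, minus strand) are shown because these genes fell and hold matches, which are in capitals; overlapping matches are merged. Psmb9 and Ifi209 have no match in their windows. The element and these genes were chosen after the expression values were seen.
Bst2: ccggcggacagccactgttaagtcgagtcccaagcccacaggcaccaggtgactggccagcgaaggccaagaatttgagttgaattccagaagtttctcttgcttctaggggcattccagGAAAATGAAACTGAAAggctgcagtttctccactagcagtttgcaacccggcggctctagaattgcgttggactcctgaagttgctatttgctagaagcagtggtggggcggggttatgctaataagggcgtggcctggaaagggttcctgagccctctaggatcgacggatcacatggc
Ifit1: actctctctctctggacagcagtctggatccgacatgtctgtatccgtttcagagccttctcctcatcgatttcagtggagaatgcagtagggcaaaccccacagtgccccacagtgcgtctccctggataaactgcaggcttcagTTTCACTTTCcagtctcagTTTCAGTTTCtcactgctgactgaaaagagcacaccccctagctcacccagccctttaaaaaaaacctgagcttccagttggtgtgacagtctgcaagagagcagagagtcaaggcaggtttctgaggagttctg
Ifi213: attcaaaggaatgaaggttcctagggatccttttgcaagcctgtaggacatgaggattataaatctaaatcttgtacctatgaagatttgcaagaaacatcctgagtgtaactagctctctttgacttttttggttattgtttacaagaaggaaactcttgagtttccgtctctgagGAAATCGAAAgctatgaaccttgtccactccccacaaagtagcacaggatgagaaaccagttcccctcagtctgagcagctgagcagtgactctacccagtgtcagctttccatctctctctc

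Of 28 measured cell cycle genes 12 rose in DKO lung and 0 fell, against 1.96% and 1.7% of all genes, with a median of 0.57 log2. In 24 the DKO arrays lay above all DHet arrays (12.7% of all genes). Cdc20, an activator of the anaphase-promoting complex, was at 7.64, 7.30 and 7.77 log2 in DHet and at 8.85, 8.37 and 8.53 log2 in DKO (log2 1.02 ± 0.127 SE, adjusted p = 3.26e-05). Cdk1, the mitotic kinase, was at 7.02, 6.96 and 7.23 log2 in DHet and at 8.22, 7.76 and 7.98 log2 in DKO, and its partner gene Ccnb2, cyclin B2, at 6.31, 6.12 and 6.72 log2 and at 7.62, 7.07 and 7.39 log2. The WT arrays, at 7.35 and 7.86 log2 in Cdk1 and at 6.88 and 7.32 log2 in Ccnb2, lay between the groups or among the DKO arrays. Cenpf, a kinetochore protein, rose by 0.98 log2, and 1 Cenpf and 1 Cdc20 probe set beside those named were not called. The proliferation marker gene Mki67 rose by 1.03 log2, from 7.48, 7.21 and 7.69 log2 in DHet to 8.61, 8.34 and 8.53 log2 in DKO. Of its WT arrays, 1 lay with DHet at 7.67 log2 and 1 with DKO at 8.50 log2. The DNA replication genes Pcna, Mcm2 and Mcm6 differed by 0.17, 0.34 and 0.19 log2, none of them called. Over the list the median difference of WT from DHet was 0.44 log2 and that of DKO from WT 0.16 log2. Mean levels over the list were 6.63, 6.48 and 6.79 log2 in DHet, 7.36, 7.03 and 7.21 log2 in DKO and 6.83 and 7.23 log2 in WT, so 1 WT array was within the DKO range. The 12 calls became 4 without DKO replicate 1, 5 without DKO replicate 3, 6 without DHet replicate 1, 4 without DHet replicate 2 and 2 with the Eif2s3y covariate.

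**Figure D4:**
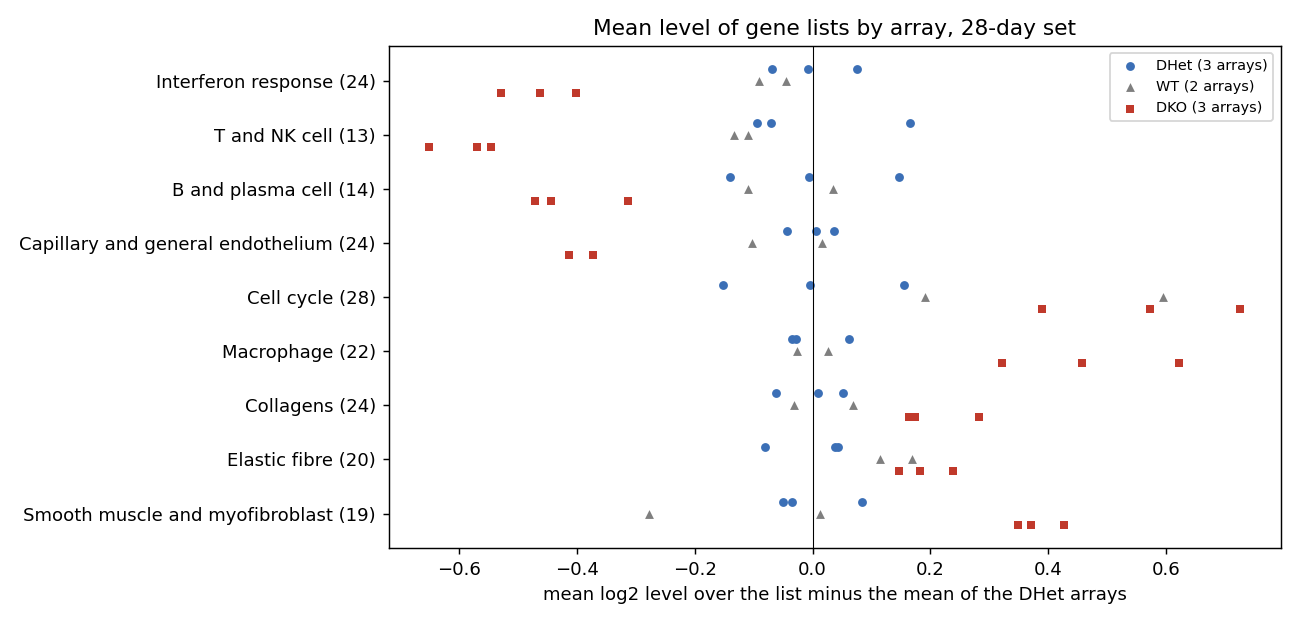
Mean log2 level over the measured members of 9 gene lists on each array of the 28-day set, minus the mean of the 3 DHet arrays, with DHet as blue circles, WT as grey triangles and DKO as red squares. DKO arrays lie below both other genotypes in the interferon, lymphocyte and endothelial lists and above both in the macrophage, collagen and smooth muscle lists. In the cell cycle and elastic fibre lists 1 WT array lies within the DKO range and the other below it.

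Promoters of genes that peak in mitosis are known for a CCAAT box and a cell cycle genes homology region (CHR). These were searched in the same windows as CCAAT or ATTGG and as TTTGAA or TTCAAA. Both were found in 2284 of 32851 windows (6.95%), in 13 of 25 windows of measured cell cycle genes (52.0%) and in 8 of 10 windows of called ones (80.0%). A CCAAT box, with or without a CHR, was in 37.4% of all windows and in 90.0% of those of called members, so the box by itself is a common match. The windows of 4 called genes described above are shown with both motifs in capitals, and they were chosen after their expression values were seen. Their windows are chr4:118437294-118437593 for Cdc20, chr1:189688037-189688336 for Cenpf, chr10:69352863-69353162 for Cdk1 and chr9:70421505-70421804 for Ccnb2, all on the minus strand.
Cdc20: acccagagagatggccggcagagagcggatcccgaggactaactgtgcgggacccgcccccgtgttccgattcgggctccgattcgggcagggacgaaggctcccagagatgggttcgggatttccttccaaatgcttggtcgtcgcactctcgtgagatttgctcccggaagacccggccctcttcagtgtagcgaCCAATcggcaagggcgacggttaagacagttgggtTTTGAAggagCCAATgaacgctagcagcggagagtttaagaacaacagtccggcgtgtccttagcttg
Cenpf: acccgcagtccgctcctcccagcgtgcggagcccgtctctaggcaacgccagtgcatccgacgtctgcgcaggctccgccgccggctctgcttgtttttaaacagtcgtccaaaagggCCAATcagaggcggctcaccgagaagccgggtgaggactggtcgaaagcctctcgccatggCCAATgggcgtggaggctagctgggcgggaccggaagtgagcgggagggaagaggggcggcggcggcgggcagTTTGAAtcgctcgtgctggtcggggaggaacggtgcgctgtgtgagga
Cdk1: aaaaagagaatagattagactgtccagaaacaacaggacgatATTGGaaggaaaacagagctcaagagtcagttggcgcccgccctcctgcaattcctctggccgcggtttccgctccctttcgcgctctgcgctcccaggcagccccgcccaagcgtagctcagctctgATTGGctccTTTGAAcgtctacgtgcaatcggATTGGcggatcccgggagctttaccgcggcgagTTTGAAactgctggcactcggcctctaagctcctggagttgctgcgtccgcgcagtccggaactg
Ccnb2: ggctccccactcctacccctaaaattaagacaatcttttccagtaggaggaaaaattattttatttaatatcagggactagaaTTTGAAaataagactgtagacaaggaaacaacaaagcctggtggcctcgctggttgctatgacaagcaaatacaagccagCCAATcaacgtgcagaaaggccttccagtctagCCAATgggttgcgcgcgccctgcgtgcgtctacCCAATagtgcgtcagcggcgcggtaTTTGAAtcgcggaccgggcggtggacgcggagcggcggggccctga

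Over all genes 1.96% rose and 1.7% fell, and these shares stand beside each count of this paragraph. Of 18 alveolar type 2 markers 0 were called, and the nearest were the mucin gene Muc1 at 0.26 log2 (adjusted p = 0.148) and the fatty acid synthase gene Fasn at 0.23 log2 (adjusted p = 0.354). Among 17 alveolar type 1 markers Igfbp2 alone fell, while all 17 differences were below 0, as were those of 6066 of all 13079 genes. The median of the type 1 list was -0.20 log2. Its median difference of WT from DHet was -0.15 log2 and that of DKO from WT -0.04 log2. Ager, the defining type 1 gene, was between 13.44 and 13.63 log2 in DHet and between 13.35 and 13.51 log2 in DKO. In the ciliated list 0 of 17 were called, with Dnah9 at 0.27 log2 (adjusted p = 0.0625) and Foxj1, the ciliogenesis factor, at 0.30 log2 (adjusted p = 0.0867), and a median of 0.22 log2. The club cell list held 1 rise, in Retnla. The mucin gene Muc5ac, of goblet cells, rose by 0.48 log2 in the 1 call among 7 goblet and basal markers, and was lost without DKO replicate 1 or 3 or DHet replicate 1 or 3 (adjusted p up to 0.146). Mesothelium markers held 3 higher of 11, which were Msln (log2 0.75), Upk3b (log2 0.51) and the mucin gene Muc16 (log2 0.44). None of them passed when DKO replicate 1 was left out or with the Eif2s3y covariate, and 1 passed without DKO replicate 3, DHet replicate 1 or DHet replicate 2 or in a fit on the 6 arrays alone. Markers of tissues that can come along with lung were not called for heart (0 of 15), cartilage (0 of 5), thymus and lymph node (0 of 5) and nerve (0 of 7), and 1 of 7 skeletal muscle markers, Atp2a1, fell by 0.39 log2 and was lost without DKO replicate 2 or 3 or DHet replicate 2 (adjusted p up to 0.188). The albumin gene Alb, outside these lists, was at 8.27 log2 in DHet replicate 3 and at 8.31 log2 in WT replicate 2. On the other arrays of the 28-day set Alb lay between 6.05 and 6.55 log2.

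For the lists that follow, the shares over all genes were again 1.96% higher and 1.7% lower. Of 21 genes of hypoxia and glycolysis 2 rose, Ankrd37 and the phosphofructokinase gene Pfkl (log2 0.54, lost without any 1 array, adjusted p up to 0.162), while the hypoxia target gene Adm differed by 0.22 log2 and Vegfa by -0.32 log2, neither called. A second Vegfa probe set fell by 0.43 log2. Of 18 glucocorticoid-responsive genes Lcn2 and the kinase gene Sgk1 (log2 0.52) rose, while the list's median was -0.26 log2. Sgk1 was lost without DKO replicate 1 or 2 or DHet replicate 1 or 2 (adjusted p up to 0.178). In the immediate early list Jun alone was called, 0.40 log2 lower (lost without any 1 array, adjusted p up to 0.193). No member was called in the lists for the circadian clock (0 of 17), heat shock and unfolded protein response (0 of 21), cholesterol and fatty acid synthesis (0 of 21), fat storage (0 of 12), oxidative phosphorylation (0 of 22) and haemoglobin and erythroid genes (0 of 8).

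The same genotype difference was measured in the 2 other age sets, which share no arrays with the 28-day set. There 436 probe sets were called in the set titled 8 day (1.61%) and 7 in the set titled 1 day (0.0259%). The 28-day difference departed from the mean of the other sets in 195 probe sets (0.722%) by limma's test of that difference. Counted by the probe set that represents each gene, 114 genes passed it (0.872%). Of the 30 genes named for size 27 passed this test, and the other 3 were Ankrd37, Edn1 and Lyve1. These genes were chosen for a large 28-day difference, which is part of the tested value, so their count is no separate support. For Lyve1 the difference was -1.29 log2 among 8-day titles (adjusted p = 0.0059) and -0.19 log2 among 1-day titles. Ankrd37 was higher by 1.40 and 0.49 log2 in these sets and Edn1 by 1.29 and 0.63 log2. Cdk19 and Ntrk2 rose in the set titled 8 day too, by 1.21 and 1.48 log2, and differed by 0.02 and 0.12 log2 in the set titled 1 day. Their 28-day difference exceeded the mean of both other sets by 1.50 log2 (adjusted p = 3.37e-05) and 1.16 log2 (adjusted p = 0.00293), while a comparison with the set titled 8 day alone was not tested. Gpr182 and Grp also fell in the set titled 8 day, by 0.54 log2 (adjusted p = 0.0167) and 0.71 log2 (adjusted p = 0.0488). In all, 6 of the 30 were called in that set and 0 in the set titled 1 day. In Ankrd63 the genotypes differed by -0.03 and 0.05 log2 in the other sets, and in Ccl5 by 0.05 and -0.08 log2. Retnla and Chil4 had lower values in DKO than in DHet in the set titled 8 day, by 0.79 and 0.59 log2, without being called there. Cell cycle genes had a median of -0.26 log2 in the set titled 8 day and 0.10 in the set titled 1 day, against 0.57 at 28 days, and the single-gene test of the difference was passed by Cdc20, Cdk1, Ccnb2 and Cenpf among the named ones. For the interferon list the medians were -0.04 and -0.01 log2 in the other sets and for capillary endothelium -0.03 and -0.16. Macrophage markers had a median of 0.34 log2 in the set titled 8 day and -0.005 in the set titled 1 day. Marco, C1qa and C1qc are not among the genes that passed the test of the difference. Ctsk of the same list did pass, with 0.28 and -0.13 log2 in the other sets (limma adjusted p = 0.000217). Neither Fgfr3 nor Eln, in the probe sets that represent them, differed from the other sets past the test (adjusted p = 0.995 and 0.183).

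**Figure D5:**
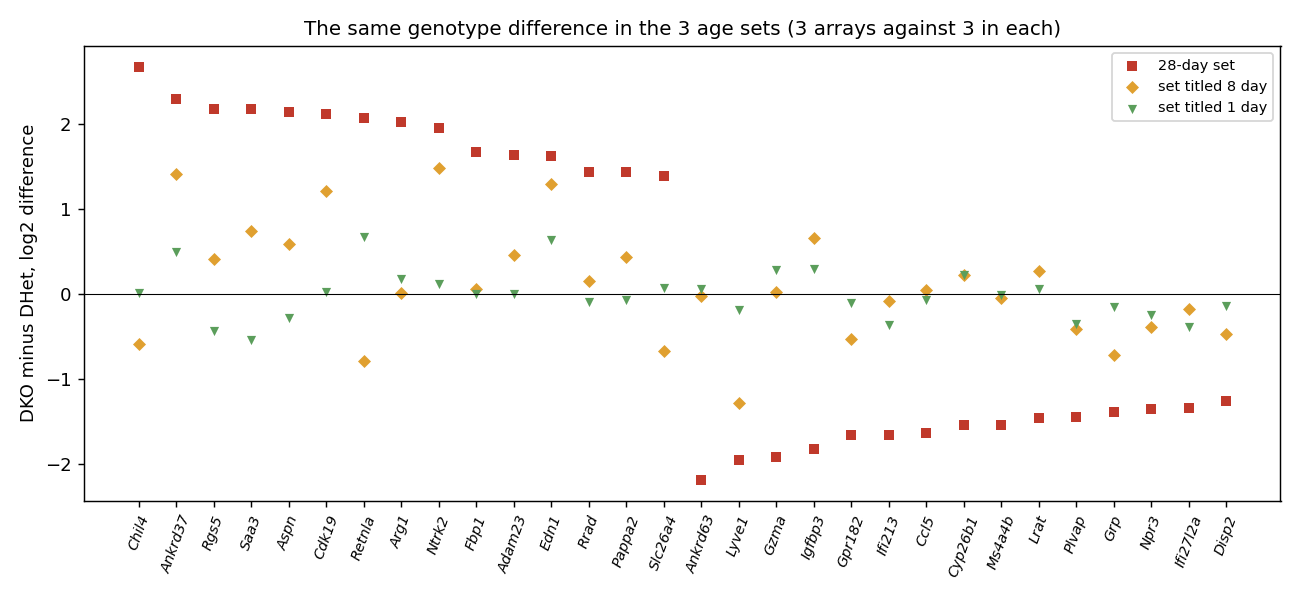
Log2 difference between DKO and DHet for the 30 genes named for size in the 28-day set (red squares), the set titled 8 day (orange diamonds) and the set titled 1 day (green triangles), each from 3 arrays against 3. The genes were chosen on the 28-day values; Ankrd37, Cdk19, Ntrk2, Edn1 and Lyve1 are more than 1 log2 from 0 also in the set titled 8 day, where the others lie between -0.79 (Retnla) and 0.74 (Saa3).

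Genes near the targeted loci were counted because flanking DNA of the original targeted strain can stay linked to a mutant allele. Within 20 Mb of Fgfr4 on chromosome 13, 10 of 217 genes were called (4.61%), among them Edn1, Aspn, Ntrk2, Fbp1 and Cxcl14. On the rest of chromosome 13 it was 6 of 245 (2.45%). Within 20 Mb of Fgfr3 on chromosome 5, 10 of 202 were called (4.95%), against 18 of 631 on the rest of that chromosome (2.85%) and 433 of 11729 on all others (3.69%). Over all genes it was 3.65%. Whether these genes are linked to the targeted alleles was not tested.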

How the data were processed

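Lung RNA pools were measured on Affymetrix mouse arrays, and the values analysed are log2 probe set levels as deposited by the authors. How probe signals were summarised and normalised is not stated in the material used here. Array medians differ between the age sets, so genotypes were compared only within a set. The level filter and the choice of the probe set for a gene used the mean over all sets. Probe sets were named through the platform annotation with symbols updated by Entrez identifier, with 34945 naming 1 gene, 932 several and 9160 none. Of 45037 probe sets, the 60% with the highest mean over all 26 arrays were kept (at least 5.38 log2), which left out 18015. A linear model with 1 mean per group (9 groups, 17 residual degrees of freedom) was fitted over all arrays in limma 3.58.1 under R 4.3.3 with empirical Bayes moderation. Adjusted p-values are Benjamini-Hochberg values over 27022 probe sets, and all adjusted p-values in the text come from this limma fit or its alternatives. The number of arrays limits the precision. Each SE and p-value of the main fit rests on the spread between pools within all 9 groups, not within the compared groups alone. It can therefore be too small where a compared group spreads widely, as DKO did in Chil4, Arg1 and Fbp1 (SD 0.941, 0.901 and 1.10 log2). The script was tested on simulated data.

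A gene is represented by the kept probe set with the highest mean. Genes named are those with the 15 largest rises and falls without overlap of the arrays, up to 4 called members of each list by p (2 where none was called), the 8 with the smallest p in the difference between age sets, and Fgfr3, Fgfr4, Eln and Igf1. Defining markers and FGF, IGF and elastic fibre genes were added. Adm, Aplnr, Cd68, Emcn, Gja4, Marco, Mcm2, Mcm6, Mki67, Mmrn1, Pcna, Prelp, Reln and Vegfa were named after their values were seen. Of 963 list memberships in 51 lists, 785 were measured, and some genes sit in more than 1 list. The comparison, lists and members were chosen with earlier results of these data known. The difference between age sets is the 28-day DKO minus DHet difference less the mean of the same difference in the other sets. Alternatives covered array subsets, filters, moderation, scaling, array weights, the replicate number, the threshold, each array left out and, added after seeing the data, the Eif2s3y level. Same-numbered arrays of the 28-day set did not deviate together (correlations -0.30, -0.33 and 0.00), so the numbers do not pair them.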

Additional observations from a re-analysis of the deposited data

Results flagged for a closer look

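Genes are given here because the 28-day difference between DKO and DHet departed from the mean of the same difference in the sets titled 8 day and 1 day by limma's test of that difference, which 0.872% of all genes passed. They come from the genes named above, many of them chosen by their 28-day difference, which is part of the tested value. Each value is the difference between sets in log2, positive where DKO minus DHet was higher at 28 days. What sets the ages apart was not tested, and array medians also differ between the age sets.

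Immune genes of the type 2 and acute phase response had positive values, with 2.96 for Chil4, 2.13 for Retnla, 1.94 for Arg1 and 2.07 for Saa3. The macrophage-linked Fbp1 and Ctsk had 1.64 and 1.28, and Timp1 had 0.75. Mesenchymal and matrix genes followed, with 2.19 for Rgs5, 1.98 for Aspn, 1.00 for Hhip, 0.75 for Col15a1 and 0.60 for Fn1. Among other rises, Slc26a4 had 1.70, Cdk19 1.50, Adam23 1.41, Rrad 1.41, Pappa2 1.25 and Ntrk2 1.16. The mitotic genes Cdc20, Ccnb2, Cdk1 and Cenpf had 1.12, 1.06, 1.05 and 0.96. The endothelial transcription factor Sox17 had 0.76.

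Negative values were found in lymphocyte genes, with -2.07 for Gzma, -1.63 for Ccl5, -1.51 for Ms4a4b, -1.22 for Nkg7, -1.03 for Fcmr, -0.73 for Cd79a and -0.64 for Cd3d. Interferon-inducible genes had -1.43 for Ifi213, -1.16 for Ifi209, -1.05 for Ifi27l2a, -0.81 for Gbp6 and -0.78 for Bst2. Endothelial and Notch genes had -1.34 for Gpr182, -1.06 for Plvap, -0.92 for Dll4, -0.81 for Hey1 and -0.65 for Ednrb. Ankrd63 had -2.20 and the IGF carrier Igfbp3 -2.30. The retinoid genes Cyp26b1 and Lrat had -1.76 and -1.62. Npr3, Grp and Disp2 had -1.04, -0.95 and -0.95.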

How the results depend on the processing

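Against 819 probe sets called (390 higher, 429 lower) and 195 in the difference between age sets, array weights gave 2326 (1143 and 1183) and 675, a threshold of 0.01 gave 383 (179 and 204) and 70, and the Eif2s3y covariate gave 312 (133 and 179) and 46. Leaving out each array in turn gave 398 to 741 called, 193 to 348 higher, 205 to 393 lower and 98 to 217 in the difference between sets. The other alternatives stayed within 1.5 times. With the replicate block the counts were 669 (315 and 354) and 142. Whether same-numbered arrays were handled together was not settled by their correlations, so the reason for a call lost there is not known. The signs of Fgfr4 (0.026 log2, in the probe set of highest level) and of Uty (-0.084 log2) were turned by the covariate. Uty is Y-linked, as is Eif2s3y, whose level is the covariate. The cause was not tested in either gene. Of the 108 named probe sets called, 68 were called without each array in turn and 62 with the covariate. Groups of 3 pools and unknown upstream normalisation limit all counts.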

Other observations

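Genes outside the lists were singled out here after their values were seen, so they are descriptions. Cxcl12, a chemokine of stromal and vessel cells, was higher in DKO lung by 0.95 ± 0.186 log2 (SE, limma adjusted p = 0.00436), at a mean of 11.02 log2 in DKO and 10.07 log2 in DHet. The gene of its receptor, Cxcr4, was 1.03 log2 lower (adjusted p = 0.0334). The imprinted genes Mest and Meg3, which are known to be high in growing tissue, rose by 1.19 and 0.92 log2, and Mest was at a mean of 9.26 log2 in DKO, 8.07 in DHet and 8.50 in WT. Most of the other Meg3 probe sets were not called, with differences from 0.03 to 0.53 log2, while those called rose by 0.84 to 1.12 log2. For Cxcl12, 1 of the probe sets was not called (0.32 log2, adjusted p = 0.235). Among mesenchymal genes Cthrc1, a secreted regulator of collagen matrix, rose by 1.10 log2, and the transcription factor gene Prrx1 by 0.81 log2.

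Lower in DKO were Esm1, an endothelial tip cell proteoglycan (log2 -1.23, adjusted p = 0.0127), and Itga6, a laminin receptor subunit (log2 -0.94, adjusted p = 0.00269). The chemokine gene Cxcl14 was lower by log2 -0.80 and the alarmin cytokine gene Tslp by log2 -0.80. Igha, the heavy chain of IgA, was at 8.57 ± 0.594 log2 in DHet and 7.34 ± 0.149 log2 in DKO (SD, n = 3 each; limma adjusted p = 0.00739), with WT arrays far apart at 8.13 and 6.57 log2. The cytokinesis genes Ect2 and Anln rose by 1.25 and 1.09 log2.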
